A study of Mus musculus with 6 samples.

Results

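Small nucleolar RNA (snoRNA) host genes were followed in 2 stable OP9 lines on Affymetrix Mouse Exon 1.0 ST arrays, 3 arrays a line. The control shRNA line carries a scrambled hairpin, and the Smo shRNA line a hairpin that targets Smoothened (Smo). The host genes asked for were Snhg1, Snhg3, Snhg5, Snhg6, Snhg8, Snhg10, Snhg11, Snhg12, Snhg18 and Gas5. A probe set was taken where its only gene symbol in the platform annotation, brought to the current name, was one of these. That found 8 of the 10 host genes, among 22103 named genes in all, with 81 probe sets. Snhg8 and Snhg12 matched no probe set by this rule and were not analysed here. The 10 names were chosen with differences between these 2 lines already known. Their levels, differences and counts of limma calls are therefore a description, from which no support is drawn. The related gene lists below were also chosen with earlier results of these data known. Their counts and adjusted p values are likewise a description.

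OP9 is a mouse bone marrow stromal line from the op/op strain, which lacks functional macrophage colony-stimulating factor, so both lines share that background. Both also carry a lentiviral pLKO.1-Puro hairpin vector. The labels do not say whether a line is a clone or a pool, nor how many hairpin sequences were used. The comparison asks what lowering Smo, the membrane protein that passes on the Hedgehog signal, changes in stromal cells. The triplicate RNA samples of a line are not stated to be separate cultures, so errors measure only the spread between these samples.

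Most snoRNAs of mammals are cut from introns of longer host transcripts. Box C/D snoRNAs guide methylation of ribosomal RNA by a particle with the methylase fibrillarin, and box H/ACA snoRNAs guide pseudouridylation by a particle with dyskerin. In a noncoding host the spliced exons code for no long protein, and many such RNAs are degraded by nonsense-mediated decay once ribosomes meet an early stop codon. Many hosts begin with a run of pyrimidines, as transcripts of ribosomal proteins do. Gas5 takes its name from its accumulation in growth-arrested fibroblasts, where translation is low.

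RefSeq (GRCm38.p6) places 8 snoRNAs within the span of Snhg1 and 8 within that of Gas5. Snhg3 holds 2, Snora73a and Snora73b, and Snhg5 and Snhg11 hold 2 each. Snhg6 holds Snord87, Snhg18 holds Snord123 and Snhg10 holds Scarna13, an RNA of Cajal bodies. None of the snoRNAs inside a host had a probe set of its own name on the array. The annotation used here gives no position of a probe set within its gene. Probe sets of a host in exons, in introns and over a snoRNA therefore cannot be told apart, and each value below is that of a probe set named for the host.

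The sequences around the start of 6 measured hosts are shown as a description, whose link to the differences between the lines was not tested. They run from 50 bases before to 50 bases after the RefSeq start, 5′ to 3′ on the strand of the gene (GRCm38.p6). Capitals mark TATAAA or TATATA on either strand, which can overlap each other, and a run of at least 5 pyrimidines that begins with C within 5 bases of the start.
Snhg3, chr4:132353637-132353736, minus strand: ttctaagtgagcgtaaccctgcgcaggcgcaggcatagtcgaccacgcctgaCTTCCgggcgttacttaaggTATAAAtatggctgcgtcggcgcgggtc
Snhg10, chr12:105032230-105032329, minus strand: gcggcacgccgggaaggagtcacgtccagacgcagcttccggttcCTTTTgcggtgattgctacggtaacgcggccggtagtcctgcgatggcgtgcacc
Snhg5, chr9:88522848-88522947, minus strand: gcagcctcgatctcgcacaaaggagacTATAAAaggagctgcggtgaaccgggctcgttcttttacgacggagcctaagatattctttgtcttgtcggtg
Snhg1, chr19:8723437-8723536, plus strand: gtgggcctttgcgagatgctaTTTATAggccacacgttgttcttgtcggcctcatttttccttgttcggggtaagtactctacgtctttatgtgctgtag
Gas5, chr1:161035116-161035215, plus strand: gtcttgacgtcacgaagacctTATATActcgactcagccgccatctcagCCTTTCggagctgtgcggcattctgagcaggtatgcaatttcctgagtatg
Snhg18, chr15:32244613-32244712, minus strand: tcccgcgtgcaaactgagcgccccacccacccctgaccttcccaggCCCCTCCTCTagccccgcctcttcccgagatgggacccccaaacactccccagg
Snhg6 was not in the promoter table.

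In this window 6 of 10 host start regions held TATAAA or TATATA, against 6.24% of 32851 mouse start regions. Among the 6 were those of Snhg8 and Snhg12, which had no probe set. The 10 belong to 9 host genes, since Gas5 has 2 starts in the table. Of these 2, only the downstream start, which is the sequence shown, held the motif. The first base lay at position -29 in Snhg1 and in Gas5, at -23 in Snhg5 and at 23, after the annotated start, in Snhg3. Snhg10, Snhg11 and Snhg18 held neither. A pyrimidine run as defined was found in 6 of 10 start regions, against 18.3% of all. Snhg8 and Snhg12 were again among the 6, and the run was longest in Snhg18, with 10 bases. The Myc box CACGTG, searched on both strands over 300 bases, was in none of the 10, against 7.15% of all promoters. These matches are descriptions of letters, and no match says only that the letters are not in the window.

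Before the values, 1 array needs naming. Smo shRNA replicate 3 exceeded all other arrays by more than 1 on the log2 scale in 382 of 245574 kept probe sets (0.156%), from 318 genes, while each of the other 5 arrays did so in 0 to 5. A kept probe set is one whose mean over the 6 arrays reached the median of all probe sets (6.56). Of the 382, 1 lay in Gas5 and 1 in Snhg1. Some values of the host genes are therefore also given without this array, and values without such a remark rest on all 6 arrays. In the other direction, Smo shRNA replicate 1 lay more than 1 below all other arrays in 108 kept probe sets. Each of the other 5 arrays did so in 27 to 56, and no array did so in a host gene. Smo itself, the hairpin's target, was 1.83-fold lower in Smo shRNA cells (-0.88 on the log2 scale, SE 0.04, limma adjusted p = 1.13e-09), and all 26 of its probe sets were lower.

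As a check of the cell type, the means of 9 tested stromal markers were 10.76 to 10.77 on the control arrays and 10.51 to 10.56 on the Smo shRNA arrays. By the limma threshold 6 of the 9 fell and 0 rose, where 17.4% of all tested genes passed as lower and 21.3% as higher. The falls ran from -0.11 in Pdgfrb and -0.15 in Col1a1 to -0.46 in Col1a2 and -0.72 in Cxcl12. Of the 3 not called, Thy1 was higher without overlap (0.12, limma adjusted p = 0.291). Levels of 8 haematopoietic markers, Ptprc among them, lay between 7.29 and 8.36, and their lowest limma adjusted p was 0.379. For 6 endothelial and 6 epithelial markers the median levels were 7.74 and 8.39, and the lowest adjusted p values were 0.658 and 0.353. Array levels of different genes cannot be compared, so these values do not show whether a marker was absent. In a bulk sample, fewer cells of a type and less RNA per cell cannot be told apart. The part of the stromal markers in the results on host genes was not tested.

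Of the 8 measured host genes, 5 were higher in Smo shRNA cells with no overlap between the arrays of the lines (Snhg1, Snhg3, Snhg5, Snhg6 and Snhg10), 1 was lower without overlap (Snhg18) and 2 overlapped (Gas5 and Snhg11). The same 6 genes passed the limma threshold (adjusted p under 0.05), as did 38.6% of all 16871 tested genes. Over all tested genes, 21.3% passed as higher and 17.4% as lower, and 26.4% and 21.4% did not overlap, higher and lower. Without Smo shRNA replicate 2, 5 host genes passed as higher. With any other single array left out 4 did, Snhg6 being the call lost. In each of these fits 1 passed as lower. Nothing is read from these counts, since the names were chosen on this contrast. The median difference of the 8 was 0.40, beside 0.01 over all genes tested. The tested genes are those with at least 3 kept probe sets, joined per array by median polish. Every difference given is the mean of the Smo shRNA arrays minus that of the control arrays, in log2 units.

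**Figure D1:**
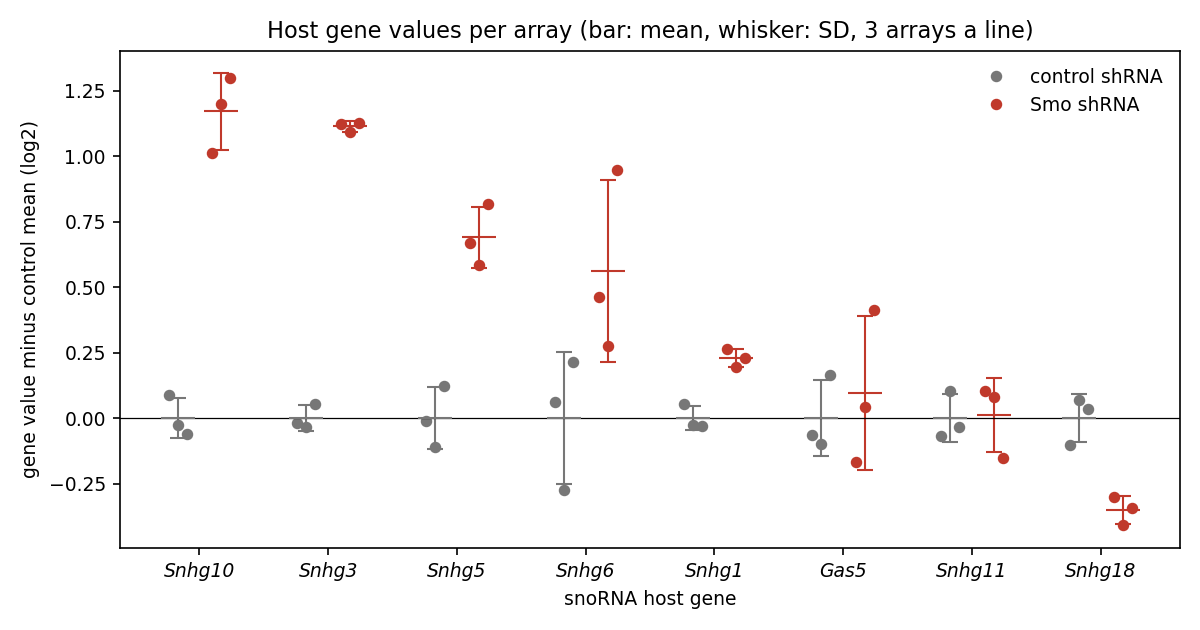
Gene values of the 8 measured snoRNA host genes on each array, as the log2 value minus the mean of the 3 control arrays. Points are arrays, horizontal marks are means and whiskers are SD over the 3 arrays of a line. The Smo shRNA arrays of Snhg10 and Snhg3 lie about 1.17 and 1.11 above the control mean, those of Snhg18 lie below it, and those of Gas5 and Snhg11 overlap the controls.

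Snhg3, which carries the Snora73 pair of box H/ACA RNAs needed for ribosomal RNA processing, was higher in every probe set. Its gene value read 11.32, 11.30 and 11.39 on the control arrays and 12.46, 12.43 and 12.46 on the Smo shRNA arrays. All Smo shRNA arrays lay more than 1 above every control array. The means were 11.34 ± 0.05 (SD, n = 3) and 12.45 ± 0.02 (SD, n = 3), a difference of 1.11 (SE 0.04) or 2.16-fold. This was the 42nd highest difference of the 16871. Leaving out any 1 array gave 1.11 to 1.15.

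All 14 Snhg3 probe sets were higher in Smo shRNA cells without overlap, by 0.47 to 1.74. Probe set 5425342, for example, read 11.37, 11.40 and 11.39 against 12.72, 12.58 and 12.62. The 2 dimmest, with means of 7.98 and 8.18, had the largest differences, 1.64 and 1.74, or 1.56 and 1.39 without Smo shRNA replicate 3. The brightest, probe set 5521210, went from 12.35, 12.39 and 12.31 to 13.18, 13.11 and 13.26, a difference of 0.83. The smallest difference belonged to probe set 4366668, at 10.26, 10.34 and 10.42 against 10.92, 10.82 and 10.71. Every Snhg3 probe set was thus higher, by differing amounts. Phactr4, a protein-coding gene 2235 bases from Snhg3, had values of 9.96 and 10.07. Its difference of 0.11 (SE 0.05) did not pass the limma threshold (adjusted p = 0.133). Snhg12, which RefSeq places on the same chromosome (4) with 4 snoRNAs, was not measured.

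Snhg10, the host of Scarna13, was higher by about as much as Snhg3, with the order of the pair turning when single arrays were left out. It read 8.50, 8.38 and 8.35 on the control arrays and 9.42, 9.61 and 9.71 on the Smo shRNA arrays. The arrays of the lines were separated by almost 1 log2 unit. The means were 8.41 ± 0.08 (SD, n = 3) and 9.58 ± 0.15 (SD, n = 3), a difference of 1.17 (SE 0.08) or 2.25-fold, with 0.94 to 1.26 when 1 array was left out. All 5 probe sets were higher and 4 did not overlap. Probe set 5347685 changed most, from 8.21, 8.35 and 8.25 to 10.29, 10.58 and 9.78, a 3.86-fold difference. The brightest, probe set 5144072, read 10.41, 10.16 and 10.09 against 11.16, 11.14 and 10.79, and probe set 5207341 changed least (0.22).

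Snhg10 lies on chromosome 12, whose genes were higher as a group. The median difference of its 574 tested genes was 0.16, the highest of all chromosomes, and 47.2% of them passed as higher, beside 21.3% over all genes. The nearest protein-coding gene, Glrx5, a mitochondrial glutaredoxin 338 bases away, rose by 0.46 (SE 0.04, adjusted p = 1.72e-06), from 11.26 to 11.72. The difference of Snhg10 was larger than both values, but Snhg10 was chosen with its difference known, so nothing is read from this. What the chromosome contributes to the difference of Snhg10 was not tested.

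Snhg5, the host of a pair of box C/D RNAs, was higher in all but 1 of its 9 probe sets. The gene value read 8.75, 8.65 and 8.89 in control cells and 9.43, 9.35 and 9.58 in Smo shRNA cells, with no overlap. The means were 8.77 ± 0.12 (SD, n = 3) and 9.46 ± 0.12 (SD, n = 3), a difference of 0.69 (SE 0.08) or 1.61-fold, and 0.61 to 0.75 without 1 array. The brightest probe set, 5085144, went from 10.67, 10.71 and 10.74 to 11.27, 11.19 and 11.23. Probe set 4754271 had the largest difference (1.07), and 4612492, a dim one, the lowest (-0.21, overlapping). In Snhg5, 7 of 9 probe sets were higher without overlap.

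Snhg6, the host of Snord87, was higher with a wide spread between arrays. It read 9.52, 9.19 and 9.68 in control cells and 9.93, 9.74 and 10.41 in Smo shRNA cells. The groups did not overlap, but the lowest Smo shRNA array stood only just above the highest control array. The difference was 0.56 (SE 0.15), and 0.35 without Smo shRNA replicate 3, the highest array. All 4 probe sets were higher, by 0.13 to 1.00, and 2 did not overlap. Without Smo shRNA replicate 3 the 4 differences were 0.10 to 0.75. Snhg6 shares 1582 bases with Mcmdc2 in RefSeq. Mcmdc2 had 20 probe sets but too few kept ones for a gene value. Whether the labelled target kept its strand is not given, so signal from the shared stretch cannot be assigned.

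Snhg1, the host of Snord22 and other box C/D RNAs, was higher by a small and even amount in its brightest probe sets. The gene value read 10.43, 10.35 and 10.35 in control cells and 10.64, 10.57 and 10.60 in Smo shRNA cells. The groups did not overlap, and the spread within each was small. The difference was 0.23 (SE 0.05) or 1.17-fold, and 0.17 to 0.21 without 1 array, where the probe sets are rejoined over the 5 others. The 7 probe sets with a mean above 12 were all higher without overlap, by 0.18 to 0.37. The brightest, 4748286, read 13.41, 13.35 and 13.26 against 13.66, 13.49 and 13.54.

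The other 8 Snhg1 probe sets, with means from 6.93 to 10.53, moved both ways. Of these, 3 were higher and 2 lower without overlap, and 3 overlapped. The lowest difference (-0.35) was that of probe set 5209318, at 8.97, 8.97 and 9.03 against 8.59, 8.61 and 8.71. Probe set 4307637 had the highest, 1.44, at 7.51, 7.03 and 7.46 against 7.96, 7.97 and 10.39. That value rests largely on Smo shRNA replicate 3 and was 0.63 without it. Slc3a2, an amino acid transporter chain whose gene lies 117 bases from Snhg1, had values of 13.38 and 13.40 and did not pass the threshold (adjusted p = 0.357).

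**Figure D2:**
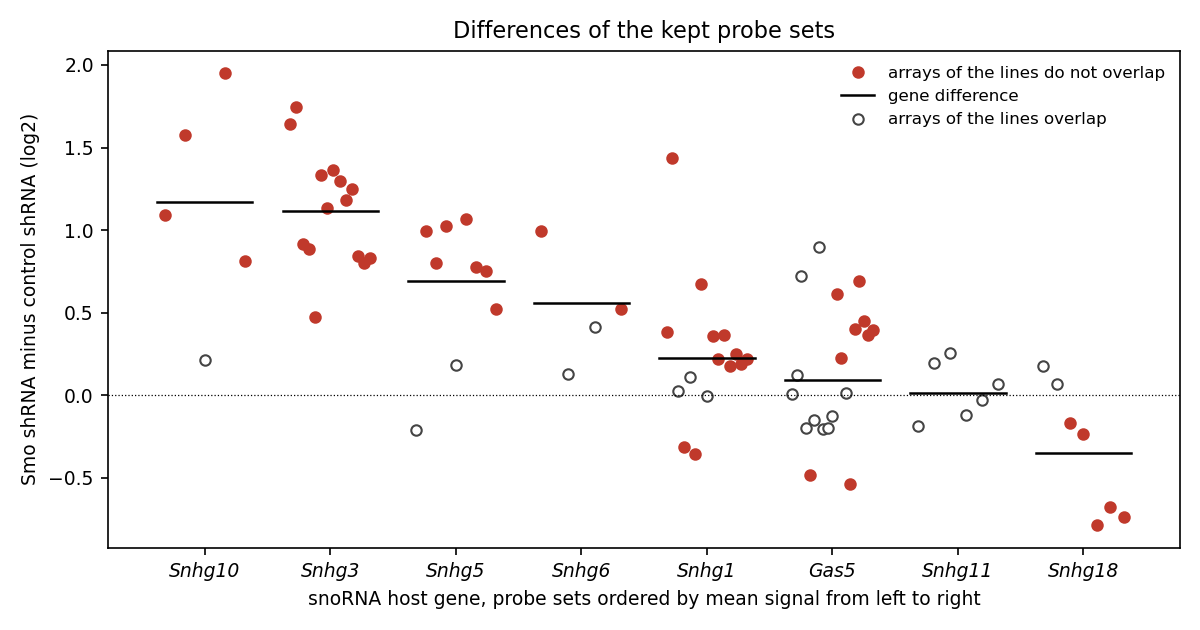
Difference between the lines for each kept probe set of the 8 host genes, in log2 units. Filled points are probe sets whose arrays do not overlap between the lines, open points overlap, and black lines are the gene differences. All 14 Snhg3 probe sets lie above 0, while those of Gas5 run from -0.53 to 0.90.

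Gas5, an RNA that also binds the glucocorticoid receptor, had probe sets that differed in both directions. The gene value read 10.30, 10.27 and 10.53 in control cells and 10.20, 10.41 and 10.78 in Smo shRNA cells, and the groups overlapped. The difference was 0.10 (SE 0.11), and -0.04 without Smo shRNA replicate 3. Beneath this, 7 of 19 probe sets were higher and 2 lower without overlap. Of the 9 brightest, with means of 10.65 to 12.42, 8 were higher and 1 lower, with a median difference of 0.40. Of the 10 dimmer ones, 4 were higher and 6 lower, with a median of -0.14. Without Smo shRNA replicate 3, the brightest split into 7 higher and 2 lower (median 0.26), and the dimmer into 1 higher and 9 lower (median -0.24). The split between bright and dim was set after the values were seen, here and in Snhg1 and Snhg18.

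The brightest Gas5 probe set, 5061812, read 12.22, 12.20 and 12.23 in control cells and 12.52, 12.58 and 12.75 in Smo shRNA cells, a 1.32-fold difference. Probe set 4849602 had the largest difference among the bright ones, from 11.19, 11.08 and 11.25 to 11.61, 11.83 and 12.17. That difference was 0.69, and 0.54 without Smo shRNA replicate 3. Against these, probe set 4517461 was lower, at 11.28, 11.24 and 11.31 against 10.28, 10.94 and 11.01 (-0.53). The bright probe sets of Gas5 thus disagreed in sign. Probe set 4992355 had the highest difference, 0.90, from 9.35, 9.23 and 9.47 to 9.17, 9.45 and 12.13. Its Smo shRNA replicate 3 alone stood apart, and without it the difference was -0.04.

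Gas5 overlaps Zbtb37, a zinc finger gene, by 264 bases in RefSeq. Zbtb37 fell by 0.25 (SE 0.07, adjusted p = 0.0136), from 9.06 to 8.81. Which Gas5 probe sets lie in the shared stretch is not in the annotation used here.

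**Figure D3:**
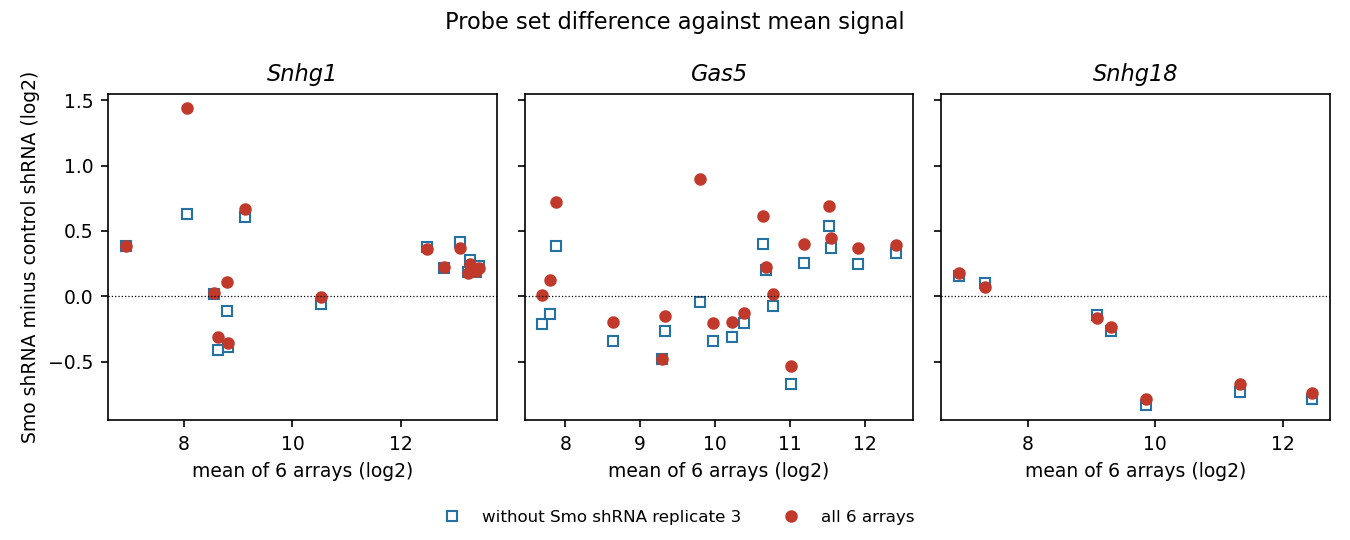
Difference between the lines against the mean of the 6 arrays, both log2, for the kept probe sets of Snhg1, Gas5 and Snhg18. Filled circles use all arrays and open squares leave out Smo shRNA replicate 3. The 7 Snhg1 probe sets above 12 lie between 0.18 and 0.37, and the 3 brightest Snhg18 probe sets lie between -0.79 and -0.67.

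Snhg18, the host of Snord123, was the only measured host gene that was lower without overlap. Its gene value read 9.40, 9.57 and 9.54 in control cells and 9.20, 9.09 and 9.16 in Smo shRNA cells. The means were 9.50 ± 0.09 (SD, n = 3) and 9.15 ± 0.05 (SD, n = 3), a difference of -0.35 (SE 0.06). The 3 brightest probe sets had the lowest differences, -0.79, -0.67 and -0.74. The brightest, 5461196, read 12.84, 12.76 and 12.86 against 12.10, 11.97 and 12.18, or 1.67-fold lower. Of the 4 dimmer kept probe sets, 2 were lower without overlap (-0.17 and -0.24) and 2 overlapped, the highest difference being 0.18 in 4450239.

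The size of the Snhg18 difference moved with the settings. It was -0.61 when only probe sets above the 75th percentile were kept, and -0.17 without Smo shRNA replicate 2, -0.20 without replicate 3 and -0.23 without replicate 1 of that line. The differences of the 3 brightest probe sets were -0.83, -0.73 and -0.79 without replicate 3. Sema5a, an axon guidance gene 150 bases from Snhg18, fell by 0.22 (SE 0.05, adjusted p = 0.00375), from 10.65 to 10.42.

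Snhg11, a host gene best known from neurons, was dim and did not separate the lines. It read 7.34, 7.51 and 7.37 in control cells and 7.51, 7.49 and 7.26 in Smo shRNA cells, a difference of 0.01 (SE 0.09). Of 6 kept probe sets, 3 were higher and 3 lower, by -0.19 to 0.26, and all overlapped. No difference was detectable at this spread.

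Over the 79 kept probe sets of the 8 genes, 60 were higher and 19 lower, with a median difference of 0.37, beside 0.02 over all kept probe sets. Without overlap 44 were higher and 9 lower, where 23.6% and 17.4% of all kept probe sets were. By limma 42 were called higher and 6 lower, beside 17.5% and 12.4% of all. Probe sets of a gene share their transcript and are not replicates, and the same contrast chose the genes. Smo shRNA replicate 3 was the highest array in 30 of the 79, beside 22.4% of all kept probe sets. Leaving it out gave 56 higher and 23 lower, with a median of 0.28, and 40 higher and 9 lower calls.

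Of 11 other noncoding snoRNA hosts, 8 had a gene value, of which 6 rose and 0 fell. Their median difference was 0.27, and leaving out 1 array left 4 to 5 higher. Snhg7 rose most, from 8.40 ± 0.20 (SD, n = 3) to 9.31 ± 0.18 (SD, n = 3), or 1.88-fold (adjusted p = 8.41e-06). Zfas1, a host of box C/D RNAs, rose by 0.44 (SE 0.04, adjusted p = 1.7e-06) and Snhg20 by 0.34 (SE 0.06, adjusted p = 0.000519). Epb41l4aos rose by 0.53 (SE 0.11, adjusted p = 0.0016), a call lost without control replicate 2 or 3, and by 0.33 without Smo shRNA replicate 3. Higher calls among all genes stood at 21.3%.

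Genes that build the box H/ACA particle rose. All 4 core proteins passed as higher, beside 21.3% of all tested genes, with a median difference of 0.40, and all 4 calls held without any 1 array. Dkc1, the pseudouridine synthase dyskerin, went from 11.14 ± 0.02 to 11.63 ± 0.04 (SD, n = 3, difference 0.49, adjusted p = 2.66e-07). Nhp2 rose by 0.41, Gar1 by 0.39 and Nop10 by 0.24 (adjusted p at most 6.8e-05). Of the box C/D core, Nop56 rose by 0.22 (SE 0.03, adjusted p = 8.91e-05) and Nop58 by 0.22 (SE 0.07, adjusted p = 0.0177), and Fbl and Snu13 were not analysed here. The call of Nop58 was lost without any 1 of the 6 arrays, where its adjusted p reached 0.285 and its difference 0.09 without Smo shRNA replicate 3, so the count of 2 became 1.

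Assembly factors of these particles rose in 8 of 12 cases and fell in none (6 to 7 without 1 array), beside 21.3% higher and 17.4% lower of all tested genes. Naf1, which brings dyskerin to new H/ACA RNAs, rose by 0.65 (SE 0.06, adjusted p = 7.96e-07), or 1.57-fold. The ATPases Ruvbl1 and Ruvbl2 rose by 0.42 and 0.40, and Nufip1, a box C/D assembly protein, by 0.26 (adjusted p at most 0.000165). Coil, the marker protein of Cajal bodies, had a difference of 0.02 (adjusted p = 0.88) and was picked with its value known. The median of the list was 0.23.

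Of 13 tested factors of nonsense-mediated decay, 9 rose and 2 fell, with a median of 0.22 (6 to 7 and 2 without 1 array), beside the same 21.3% and 17.4%. Nbas rose by 0.45 (SE 0.06, adjusted p = 4.28e-05). Among the exon junction proteins, the helicase Eif4a3 rose by 0.41 (SE 0.05, adjusted p = 6.35e-06) and Casc3 by 0.31 (SE 0.05, adjusted p = 0.000166). Upf1, the central helicase of the pathway, rose by 0.14 (adjusted p = 0.0252), a call lost without any 1 of the 6 arrays. Those that fell were Upf2 (-0.31, adjusted p = 0.00057) and Pnrc2 (-0.20, adjusted p = 0.000193), which links Upf1 to decapping. Upf1 and Upf2 were picked with their values known.

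Protein-coding genes that carry snoRNAs had a median difference of 0.05. Of 27 tested, 11 rose and 3 fell, beside 21.3% and 17.4% of all tested genes. Without Smo shRNA replicate 3, 18.5% of the list was called, all higher, beside 30.8% of all tested genes, either direction, in that fit. Without 1 array, 5 to 9 rose and 0 to 1 fell, the total of calls being 5 without Smo shRNA replicate 3, 6 and 7 without control replicates 1 and 2, 9 without control replicate 3, 8 without Smo shRNA replicate 1 and 7 without Smo shRNA replicate 2. The nucleolar protein Wdr43 rose by 0.41 (SE 0.04, adjusted p = 2.97e-06), the mitochondrial chaperone Hspa9 by 0.34 (adjusted p = 1.23e-06), Cnot1 by 0.23 (adjusted p = 3.12e-05) and nucleolin, Ncl, by 0.21 (adjusted p = 0.000153). Those that fell were the ribosomal protein genes Rpl3 (-0.13) and Rpl13a (-0.10) and Rabggtb (-0.14). Rpl7a, another ribosomal protein gene, rose by 0.58 (SE 0.18, adjusted p = 0.0193), but by 0.27 without Smo shRNA replicate 3, and its call held in only 1 of the 6 fits without 1 array. These 4 genes were picked with their values known.

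**Figure D4:**
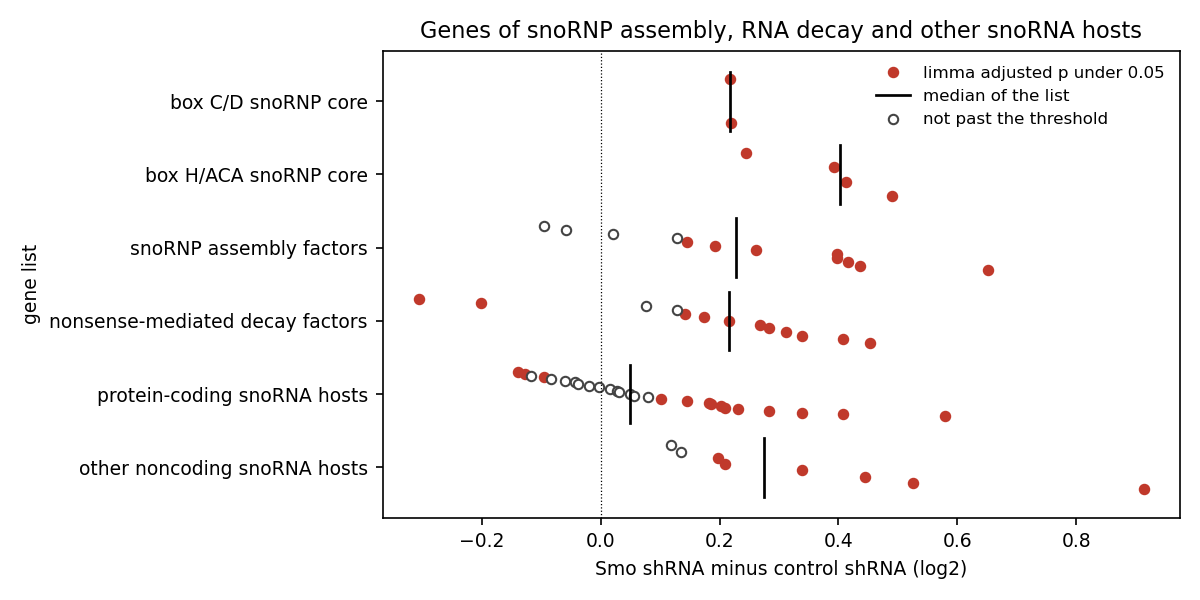
Difference between the lines, in log2 units, for each tested gene of 6 lists: core and assembly proteins of snoRNA particles, factors of nonsense-mediated decay and other snoRNA hosts. Filled points passed the limma threshold and black lines are medians. All 4 box H/ACA core genes lie between 0.24 and 0.49, while the protein-coding hosts centre on 0.05.

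The genes whose profile over the 6 arrays came nearest to the mean profile of the 8 host genes were Utp14a, Pms1, Simc1, Tomm5 and Klc1. Nearness was the root mean square distance after each gene's own mean was removed, and it ran from 0.014 to 0.022 log2 units. Utp14a, a protein of the small ribosomal subunit processome, read 8.73, 8.71 and 8.83 in control cells and 9.17, 9.16 and 9.29 in Smo shRNA cells. The host genes themselves lay farther from their own mean profile, at 0.13 for Snhg1 to 0.40 for Snhg18. The mean profile is thus not that of any single host gene.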

How the data were processed

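The authors deposited 1 table of 1256831 exon probe sets on 6 arrays, as log2 values by their range (0 to 15.14). Array medians were nearly equal (6.56 to 6.59). The method of summary and scaling by the authors was not given in the sources used here, and the number of arrays limits the precision. snoRNAs were matched to hosts by span only, without strand. Gene symbols came from the platform annotation and were updated through RefSeq (GRCm38.p6). Probe sets with 1 symbol and a mean at or above 6.56 were kept (245574). Genes with 3 or more were joined by Tukey median polish (16871 genes) and compared with limma 3.58.1 in R 4.3.3 (variance trend, two-sided, Benjamini-Hochberg over all genes or all kept probe sets). The calculation was tested on simulated data.

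The host genes and lists were chosen with earlier results of these data known. Named genes are all host genes, Smo, up to 4 called genes with the smallest adjusted p per list, the brightest, highest and lowest probe set of a host gene, and the 5 most similar genes. Probe sets 5425342 (Snhg3) and 4849602 (Gas5), the bright Snhg18 probe sets and the marker examples were picked with their values known. Neighbours within 3000 bases were added after the values were seen. Alternatives were no filter and a stricter filter (75th percentile, 8.22), the mean of probe sets, 1 kept probe set, no variance trend, quantile normalization, a replicate block and leaving out each array with probe sets rejoined. Dim and bright refer to the signal on the array, and levels of different genes were not compared as amounts of RNA.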

Additional observations from a re-analysis of the deposited data

How the results depend on the processing

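The host genes were chosen on this contrast, and the lists with earlier results of these data known. No stability is therefore read from the signs or calls of either. Snhg10 was below Snhg3 without control replicate 1 (1.00 and 1.11), 2 (0.94 and 1.12) or 3 (0.95 and 1.15) and without Smo shRNA replicate 3 (1.07 and 1.12). Differences of Gas5 and Snhg11, which were not called, changed sign, Gas5 to -0.04 without Smo shRNA replicate 3 and Snhg11 to -0.01 without the filter and -0.04 without Smo shRNA replicate 1. The stricter filter left too few Snhg11 probe sets for a gene value. Without a variance trend the box C/D core had 1 call and the protein-coding hosts 9, and without 1 array they had 1 and 5 to 9. The count over all genes (6518) was 4801 to 5524 without 1 array, or 28.5% to 32.7% of all tested genes. In these fits 2669 to 2913 genes passed as higher and 2075 to 2770 as lower, the background for list counts without 1 array. Arrays share replicate numbers, but same-numbered arrays deviated together only weakly (correlations 0.08, 0.10 and 0.39), and control replicate 2 correlated best with Smo shRNA replicate 1 (0.31). With the replicate block 6924 genes were called, and Smo was -0.88. Dim probe sets, as in Snhg11, limit what can be detected.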
